A study of Capra hircus with 9 samples.

Results

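The HC diet was compared with the LC diet in the rumen epithelium of goats (Capra hircus) aged 4 months. The members are the 3 libraries labelled HC1 to HC3 and the 3 labelled LC1 to LC3, 6 of the 9 libraries of the series, taken by the diet that the sample labels give. The remaining 3 libraries, of the MC diet, enter only the estimate of the spread. The labels describe the diets as types of concentrate feed and give the letters HC, MC and LC without spelling them out, and they name no breed, sex or second treatment. Tissue was frozen and its RNA extracted with Trizol, and libraries were made with the Illumina TruSeq RNA kit. Whether each library is a goat of its own is not in the labels, so the p-values measure only the spread between these samples, which may be technical. Each value is the deposited FPKM of a gene (mapped fragments scaled to transcript length and library size), and values are listed in the order of libraries 1, 2 and 3. A log2 change is HC minus LC on the scale log2(FPKM + 1), given ± SE, which understates the change of genes with low values. It was tested with limma, and a gene that passed had an adjusted p below 0.05 over all 11668 genes tested.

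The rumen is the fermentation chamber of ruminants, and its lining is a stratified squamous epithelium like that of skin or oesophagus. Basal cells divide on a basement membrane, and their daughters move up, join by desmosomes and gap junctions and flatten into a cornified layer that faces the microbes. The same cells take up short-chain fatty acids, turn butyrate into ketone bodies and carry out bicarbonate, sodium and urea exchange. Under the epithelium lie a vascular lamina propria with immune cells and the smooth muscle of the wall, so a sample of lining can hold differing amounts of the tissue underneath. In RNA from whole tissue, fewer cells of a type and less RNA per cell cannot be told apart.

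Of the markers of the epithelium itself, KRT14, TP63 and the summed level overlapped between the diets in the 6 libraries, while some single markers did not. KRT14, the keratin of basal cells, stood at 1116, 1287 and 1429.6 FPKM in HC and 925, 1461 and 1623 FPKM in LC (log2 change -0.032 ± 0.21, adjusted p = 0.927). TP63, the transcription factor of basal keratinocytes, stood at 77.8, 90.0 and 84.5 FPKM in HC and 84.3, 72.9 and 82.7 FPKM in LC (log2 change 0.073 ± 0.13, adjusted p = 0.716). The summed level of 11 markers of stratified epithelium was 5972, 8179 and 7878 FPKM in HC and 5527, 7974 and 8361 FPKM in LC, again with overlap. A sum can hide single members, and EVPL, KRT4 and DSG3 of this list lay lower in every HC library than in any LC library. The call of EVPL was lost in 3 of 18 alternatives, and KRT4 and DSG3 are given below.

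Markers of smooth muscle split the LC libraries. The summed level of the smooth muscle list was 172, 207 and 223 FPKM in HC and 3328, 1760.0 and 96.5 FPKM in LC, so LC1 and LC2 lay above every HC library and LC3 below every HC library. DES, which encodes the muscle intermediate filament desmin, stood at 1.97, 1.28 and 5.47 FPKM in HC and 696, 428 and 1.44 FPKM in LC. MYH11, smooth muscle myosin, stood at 4.39, 5.69 and 6.89 FPKM in HC and 253, 129 and 2.41 FPKM in LC. CNN1, the actin-binding calponin, stood at 6.63, 8.36 and 9.33 FPKM in HC and 319, 168 and 1.58 FPKM in LC. Of 19 tested markers of smooth muscle 0 passed the test with all LC libraries, and 17 were called lower without LC3. With LC3 alone 1 passed, ACTA2, higher in HC (log2 change 1.54, adjusted p = 0.0314 by limma), which was named after its value was seen. The smooth muscle covariate gave 3 higher and 2 lower. It is the mean log2 level of these same 19 markers, which fixes their average change, so that split says nothing of direction. The median log2 change of the markers was -1.87 with all LC libraries and 0.91 with LC3 alone. The direction for MYH11 (-2.88, and 0.95 with LC3 alone), ACTG2 (-2.89 and 1.79), DES (-4.67 and 0.53), CNN1 (-2.52 and 1.81) and TAGLN (-1.25 and 1.57) thus turned with the LC libraries used, and no direction is drawn for this tissue. MYH11, ACTG2 and TAGLN share their loci with other genes in the files. Fibroblast markers summed to 454, 256 and 339.7 FPKM in HC and 829.7, 533 and 351 FPKM in LC. Endothelial markers summed to 61.0, 29.4 and 36.9 FPKM in HC and 160.5, 91.3 and 52.7 FPKM in LC, and both lists were highest in LC1. T and NK cell markers summed to 17.3, 15.8 and 19.9 FPKM in HC and 31.4, 28.4 and 27.2 FPKM in LC. Markers of macrophages and dendritic cells summed to 62.3, 56.3 and 66.8 FPKM in HC and 104, 104 and 98.7 FPKM in LC. For both immune lists every LC library lay above every HC library, with LC3 close to LC1 and LC2. The part that these amounts play in any gene's change was not tested, and most counts of list members are given with all LC libraries and with LC3 as the only LC library.

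**Figure D1:**
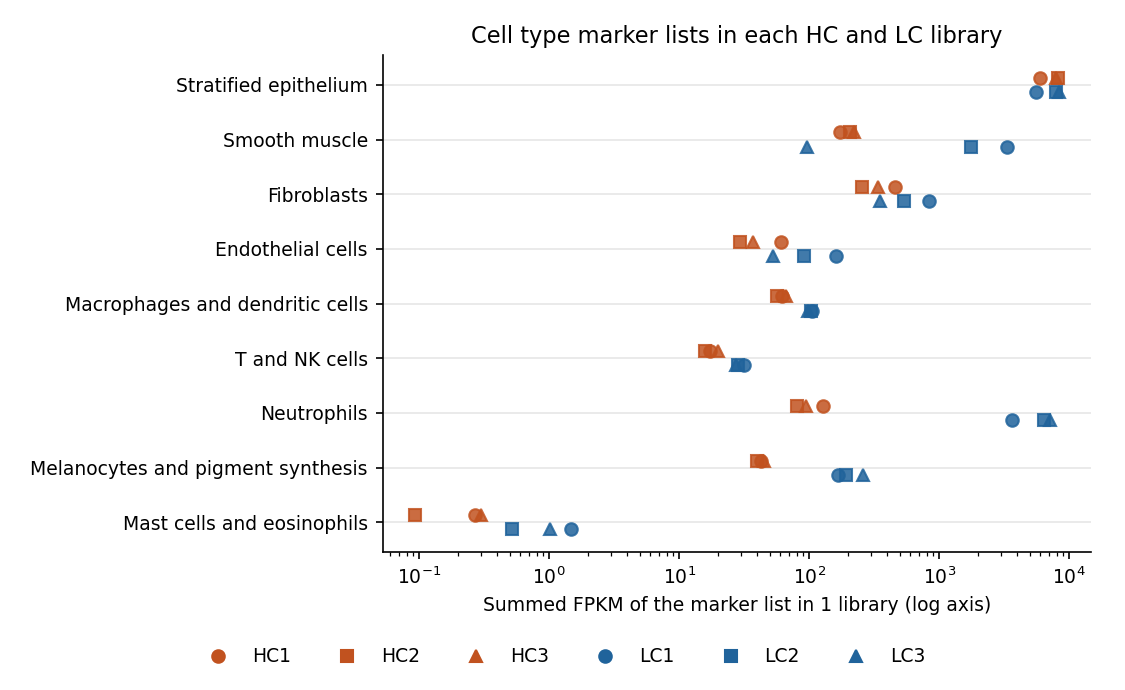
Summed FPKM of 9 marker lists (x axis, log scale) in each HC library (orange) and LC library (blue), 1 symbol per library. LC3 lies at 96.5 FPKM for smooth muscle against 1760 and 3328 FPKM in LC2 and LC1, while the sums of the epithelial markers overlap between the diets.

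Of 11668 genes tested, 2939 (25.2%) passed, 909 (7.79%) higher and 2030 (17.4%) lower in HC. With LC3 alone for LC, 1379 (11.8%) passed, 431 (3.69%) higher and 948 (8.12%) lower. All 2939 genes kept their sign with LC3 alone and 1271 (43.2%) of them passed again in that direction. Their change with LC3 alone was more than 1.5 times smaller for 294 genes and more than 1.5 times larger for 36, with a median ratio of 0.99. The 3 HC libraries did not overlap the 3 LC libraries for 4742 genes (40.6%), 1549 (13.3%) with HC above and 3193 (27.4%) with HC below. The median log2 change over all genes was -0.10, and -0.12 with LC3 alone, so single changes are to be read against that shift. The split rests on the scale, since of the genes called 30.9% were higher in HC on the deposited scale, 52.9% after median-of-ratios scaling and 56.2% after quantile normalization. Without HC3 the calls numbered 1769. A call held in every one of 18 alternative fits in which the gene was tested for 1015 genes, 357 higher and 658 lower. A gene said to have risen or fallen, or to be higher or lower, is among those 1015 unless its losses are given, and the same verbs in a count of list members cover every member past the test. Counts of the main fit are read against 7.79% of all genes higher and 17.4% lower. Counts in another setting are read against the totals of that setting. After median-of-ratios scaling 1494 of 11668 genes were higher and 1329 lower, and after quantile normalization 1484 and 1157. Without a minimum 953 of 13820 were higher and 2354 lower. Counts after scaling are given for many lists, but not for every list that a scaling moved by more than 1.5 times. The falls of the ketone body list, for example, numbered 2, then 1 after median-of-ratios scaling and 0 after quantile normalization. Some members reached the minimum of 1 FPKM only through the libraries of 1 diet, so a difference was built into their selection, and a list with at least 2 of them is also counted without a minimum.

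**Figure D2:**
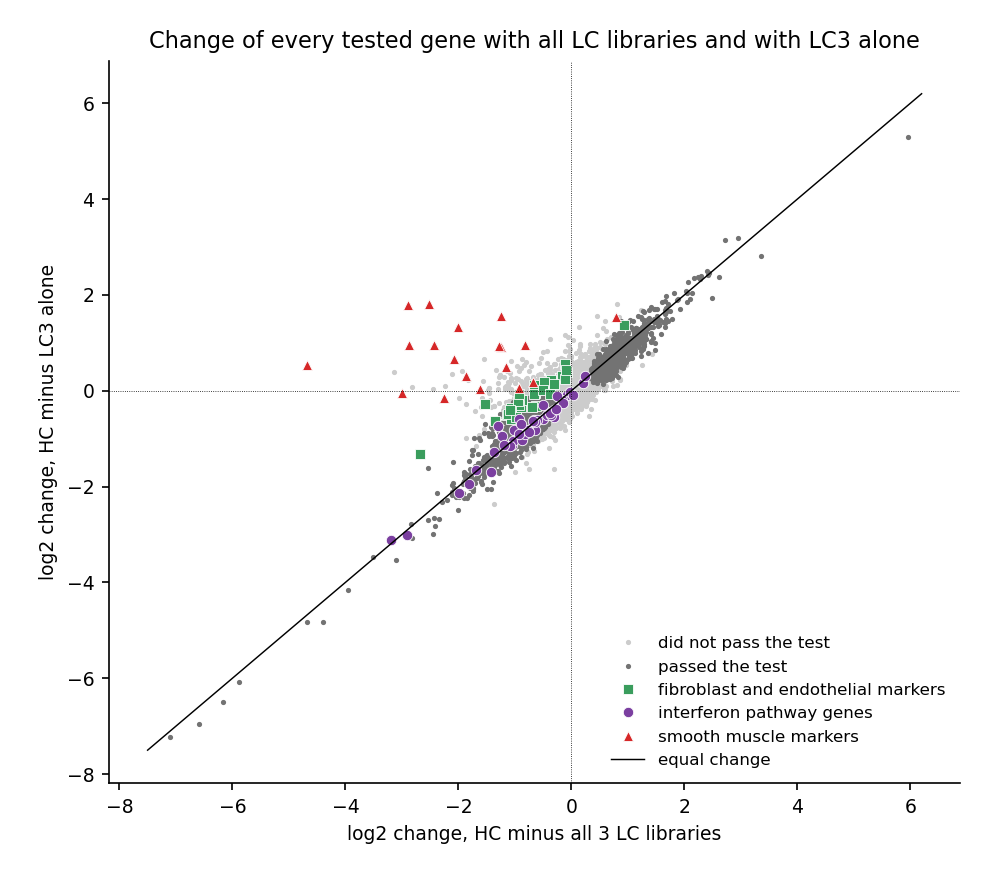
Log2 change of each of the 11668 tested genes with all LC libraries (x axis) and with LC3 alone (y axis), with genes past the test in dark grey and 3 gene groups coloured. Interferon pathway genes lie on the line of equal change, and most smooth muscle markers lie above it, with a median of -1.87 on the x axis and 0.91 on the y axis.

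Genes of the interferon pathway that passed the test were lower in HC, from the receptor to the effectors. Type I interferons bind the receptor pair IFNAR1 and IFNAR2 and signal through the kinases JAK1 and TYK2 to a complex that holds STAT2 and IRF9 and switches on antiviral genes. IFNAR1 stood at 2.83, 3.03 and 2.67 FPKM in HC and 7.19, 6.19 and 7.41 FPKM in LC (log2 change -1.04 ± 0.11, adjusted p = 9.40e-05). IFNAR2 stood at 2.45, 2.56 and 1.54 FPKM in HC and 5.90, 4.98 and 5.49 FPKM in LC (log2 change -1.03 ± 0.14, adjusted p = 4.59e-04). Both receptor chains were lower in each HC library than in any LC library. JAK1, which shares its locus with another gene in the files, stood at 26.5, 32.5 and 33.3 against 34.9, 32.7 and 35.3 FPKM (HC against LC, log2 change -0.16 ± 0.12, adjusted p = 0.376). TYK2 stood at 3.82, 4.29 and 3.73 against 5.67, 4.88 and 4.29 FPKM (log2 change -0.26 ± 0.13, adjusted p = 0.147), and neither kinase passed. IRF9, the DNA-binding part of the complex, stood at 5.70, 4.11 and 5.86 FPKM in HC and 18.5, 20.1 and 18.4 FPKM in LC (log2 change -1.70 ± 0.13, adjusted p = 8.46e-06). STAT2, of the same complex, passed narrowly (9.38, 9.78 and 12.3 against 12.4, 15.5 and 15.3 FPKM, log2 change -0.43 ± 0.14, adjusted p = 0.0436, shared locus), and its call was lost in 9 of 18 alternatives. IRF7, which amplifies interferon production, stood at 4.83, 6.52 and 7.52 FPKM in HC and 13.9, 19.8 and 22.4 FPKM in LC (log2 change -1.43 ± 0.25, adjusted p = 0.00273). Neither chain of the receptor for interferon gamma passed, with IFNGR1 at 19.8, 12.5 and 14.1 against 16.3, 18.6 and 22.8 FPKM (log2 change -0.31 ± 0.17, adjusted p = 0.215). IFNGR2 stood at 97.8, 112 and 103 against 85.4, 91.7 and 93.6 FPKM (log2 change 0.21 ± 0.12, adjusted p = 0.241). Among receptors and signal transducers, 0 of 20 tested members rose and 11 fell, median log2 change -0.40 (0 and 5 with LC3 alone, median -0.51). The list of receptors and transducers counted 2 higher and 7 lower after median-of-ratios scaling and 0 higher and 7 lower after quantile normalization, and 0 higher and 11 lower of 20 members without the minimum (median -0.40), since 2 had met it through LC alone.

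Several sensors of viral RNA were also lower. IFIH1, which detects long double-stranded RNA, stood at 2.11, 2.31 and 2.74 FPKM in HC and 4.98, 4.90 and 5.32 FPKM in LC (log2 change -0.84 ± 0.13, adjusted p = 8.16e-04). DHX58, its regulator, stood at 7.15, 9.91 and 7.74 FPKM in HC and 16.02, 20.7 and 19.4 FPKM in LC (log2 change -1.09 ± 0.14, adjusted p = 3.26e-04). EIF2AK2, the kinase that stops translation on double-stranded RNA, stood at 7.01, 4.80 and 6.79 FPKM in HC and 11.2, 11.5 and 13.5 FPKM in LC (log2 change -0.87 ± 0.16, adjusted p = 0.00257). IKBKE, a kinase that activates interferon regulatory factors, stood at 5.996, 6.73 and 5.65 FPKM in HC and 9.12, 13.6 and 12.4 FPKM in LC (log2 change -0.82 ± 0.15, adjusted p = 0.00244). For each of these genes every HC library was below every LC library. In the list of nucleic acid sensors and adaptors, 0 of 8 tested members rose and 4 fell, median log2 change -0.59 (0 and 4 with LC3 alone, median -0.68).

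Among antiviral effectors, MX1, a GTPase that traps viral capsids, stood at 1.11, 1.41 and 1.11 FPKM in HC and 19.1, 20.2 and 18.0 FPKM in LC, a mean 15.8-fold higher in LC (log2 change -3.19 ± 0.12, adjusted p = 2.72e-08). ISG15, the ubiquitin-like modifier, stood at 5.68, 7.44 and 8.24 FPKM in HC and 52.6, 63.8 and 63.8 FPKM in LC (log2 change -2.92 ± 0.16, adjusted p = 6.54e-07). The enzymes that attach ISG15 were lower too, with the E1 enzyme UBA7 at 2.14, 2.66 and 2.49 FPKM in HC and 7.34, 6.72 and 6.54 FPKM in LC (log2 change -1.20 ± 0.12, adjusted p = 4.97e-05). The E2 enzyme UBE2L6 stood at 6.87, 7.27 and 7.10 FPKM in HC and 12.4, 12.5 and 13.2 FPKM in LC (log2 change -0.76 ± 0.10, adjusted p = 4.21e-04). RSAD2, the antiviral radical enzyme viperin, was near 0 in HC and uneven in LC, at 0.274, 0.0367 and 0.0864 FPKM in HC and 3.10, 1.25 and 1.72 FPKM in LC (log2 change -1.38 ± 0.21, adjusted p = 8.51e-04). The partners PARP9 (2.30, 1.64 and 2.14 against 9.59, 11.1 and 12.2 FPKM, -1.98) and DTX3L (2.16, 0.819 and 2.02 against 8.02, 7.36 and 8.96 FPKM, -1.81), a complex that modifies histones, fell by like amounts on the log2 scale. PARP14 (-0.93) and the antibody receptor TRIM21 (-0.62) also fell. Among the effectors listed, 0 of 18 tested members rose and 17 fell, median log2 change -0.93 (0 and 10 with LC3 alone, median -0.84), and in all 18 tested members the HC libraries lay below the LC libraries, against 27.4% of all genes. The list of interferon-induced effectors counted 0 higher and 19 lower of 23 members without the minimum (median -0.76), since 5 had met it through LC alone.

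Subunits of the immunoproteasome did not move together. PSMB8, which replaces a standard protease when interferon is present, stood at 3.87, 2.24 and 3.42 FPKM in HC and 13.6, 11.9 and 11.1 FPKM in LC (log2 change -1.68 ± 0.25, adjusted p = 0.00111). PSMB9, a replacement of the same kind, stood at 4.998, 5.29 and 4.80 FPKM in HC and 11.4, 13.3 and 12.5 FPKM in LC (log2 change -1.15 ± 0.21, adjusted p = 0.00282). PSMB10, the remaining replacement subunit, went the other way, at 61.8, 67.0 and 61.2 FPKM in HC and 20.3, 33.7 and 29.4 FPKM in LC (log2 change 1.19 ± 0.17, adjusted p = 5.11e-04). Each of the 3 genes separated the diets fully. In the list of all proteasome subunits, 3 of 41 tested members rose and 2 fell, median log2 change 0.12 (1 and 2 with LC3 alone, median -0.03, rises 1 without HC3). The list of proteasome subunits counted 6 higher and 2 lower after median-of-ratios scaling and 3 higher and 3 lower after quantile normalization.

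**Figure D3:**
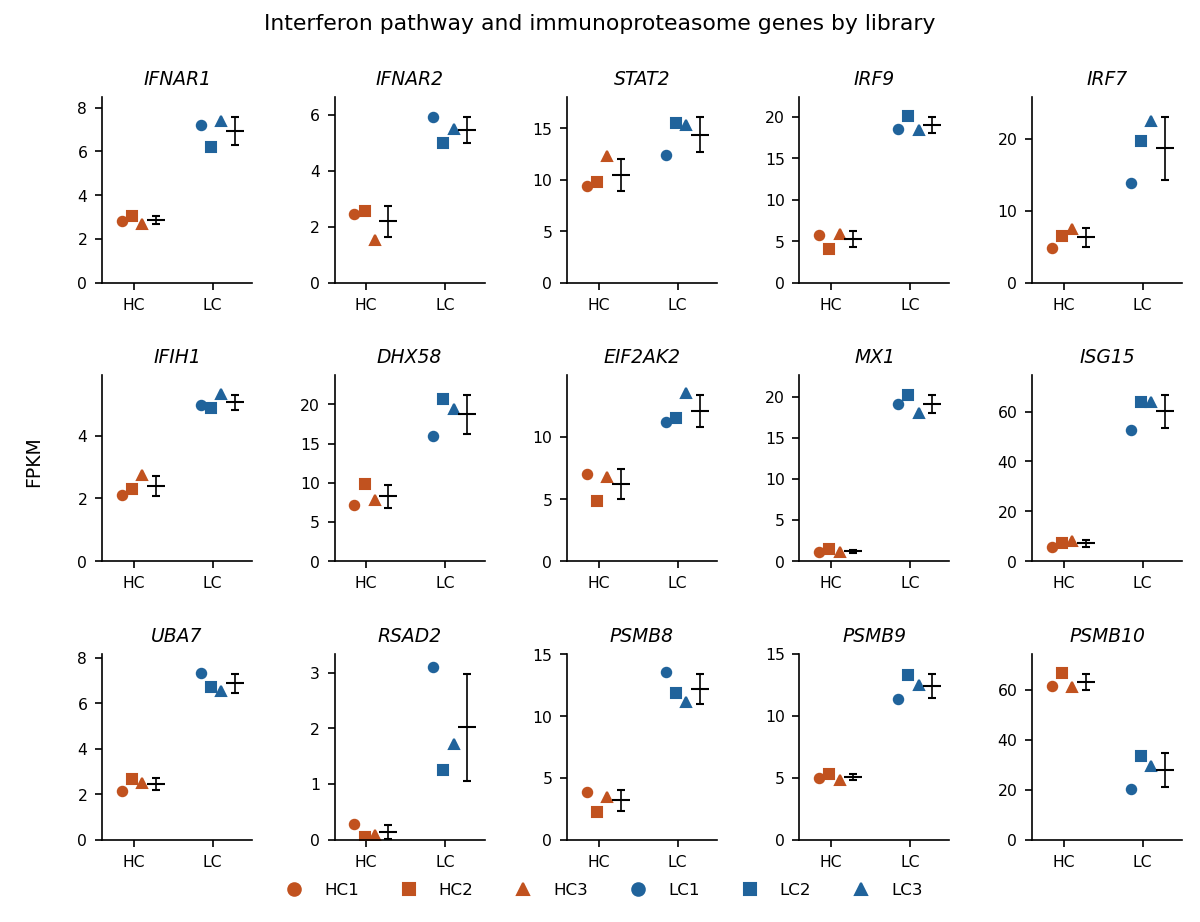
FPKM (y axis, starting at 0) of 15 interferon pathway and immunoproteasome genes in each HC (orange) and LC (blue) library, with mean and SD as black bars (n = 3). MX1 sits between 1.11 and 1.41 FPKM in HC and between 18.0 and 20.2 FPKM in LC, and among the 15 genes PSMB10 alone is higher in HC.

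T cell receptor components were lower in HC. CD3D stood at 0.316, 0.198 and 0.195 FPKM in HC and 2.08, 1.33 and 1.63 FPKM in LC (log2 change -1.11 ± 0.17, adjusted p = 9.12e-04). CD3G stood at 0.401, 0.179 and 0.225 FPKM in HC and 1.39, 1.34 and 1.47 FPKM in LC (log2 change -0.93 ± 0.15, adjusted p = 9.93e-04). CD247, the zeta chain, stood at 1.30, 2.04 and 1.48 FPKM in HC and 3.75, 4.605 and 4.33 FPKM in LC (log2 change -1.01 ± 0.14, adjusted p = 5.27e-04). CD3E, which shares its locus with another gene, fell too (-1.58), as did the T cell surface protein CD5 (-1.31), the chemokine CCL5 (-1.40) and the chemokine receptor CXCR6 (-1.04), which also shares its locus. NKG7, a granule protein of cytotoxic lymphocytes, was the opposite case at 11.05, 9.22 and 15.0 FPKM in HC and 3.04, 2.91 and 2.78 FPKM in LC (log2 change 1.68 ± 0.15, adjusted p = 2.34e-05). The cytotoxic effector PRF1 was listed in no HC library and stood at 0.266, 0.220 and 0.284 FPKM in LC, and CD8A at 0.0938, 0.0290 and 0.0907 FPKM in HC and 0.471, 0.355 and 0.775 FPKM in LC. In the T and NK cell list, 1 of 8 tested members rose and 7 fell, median log2 change -1.07 (1 and 7 with LC3 alone, median -1.07). The list of T and NK cell markers counted 1 higher and 12 lower of 13 members without the minimum (median -0.93), since 5 had met it through LC alone.

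Myeloid genes were lower in part. CSF1R, the growth factor receptor of macrophages, stood at 2.22, 2.44 and 2.40 FPKM in HC and 7.47, 6.57 and 5.39 FPKM in LC (log2 change -1.15 ± 0.13, adjusted p = 1.31e-04). LAPTM5, a lysosomal protein of leukocytes, stood at 10.4, 10.8 and 9.54 FPKM in HC and 22.8, 19.3 and 21.3 FPKM in LC (log2 change -0.97 ± 0.13, adjusted p = 3.56e-04). CD207, the langerin of Langerhans cells, stood at 0.259, 0.109 and 0.388 FPKM in HC and 3.54, 3.18 and 4.44 FPKM in LC (log2 change -1.91 ± 0.15, adjusted p = 1.12e-05). CD74, the invariant chain of class II presentation, stood at 33.5, 48.4 and 41.5 FPKM in HC and 121, 107 and 106 FPKM in LC (log2 change -1.43 ± 0.14, adjusted p = 4.78e-05). For all of these genes the diets did not overlap. CD207 had reached the minimum of 1 FPKM through LC alone, so a difference was built into its selection. Without the minimum its Langerhans cell list counted 0 higher and 2 lower of 5 members (median -0.36). TYROBP (lost in 4 of 18 alternatives, with adjusted p up to 0.0929) and CTSS (lost in 6 of 18 alternatives, with adjusted p up to 0.143) were called less firmly. In the macrophage and dendritic cell list, 0 of 10 tested members rose and 5 fell, median log2 change -0.60 (0 and 2 with LC3 alone, median -0.56, falls 2 without HC2 or LC3, 3 without HC3 or LC2). In the Langerhans cell list, 0 of 5 tested members rose and 2 fell, median log2 change -0.36 (0 and 2 with LC3 alone, median -0.49). In the B and plasma cell list, 0 of 2 tested members rose and 1 fell, median log2 change -0.42 (0 and 0 with LC3 alone, median -0.54), the fall being that of JCHAIN, which was lost in 2 of 18 alternatives, with adjusted p up to 0.0893. The list of B and plasma cell markers counted 0 higher and 0 lower after quantile normalization.

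C1R, C1S, C2 and C3, early proteins of the complement system, were lower in HC. C1R, a protease that starts the classical cascade, stood at 7.07, 7.13 and 7.10 FPKM in HC and 36.2, 34.7 and 29.6 FPKM in LC (log2 change -2.09 ± 0.12, adjusted p = 9.37e-07). C1S, the protease it activates, stood at 5.93, 7.16 and 6.14 FPKM in HC and 26.5, 25.8 and 21.9 FPKM in LC (log2 change -1.80 ± 0.17, adjusted p = 3.22e-05). Their target C2 stood at 0.232, 0.211 and 0.189 FPKM in HC and 3.39, 4.16 and 3.11 FPKM in LC (log2 change -1.90 ± 0.14, adjusted p = 8.02e-06). C3, on which all complement routes converge, stood at 1.99, 1.43 and 1.48 FPKM in HC and 8.01, 6.51 and 4.01 FPKM in LC (log2 change -1.41 ± 0.21, adjusted p = 6.18e-04). The regulator CD59 (74.8, 49.0 and 56.4 against 119, 111 and 131 FPKM, -1.01), which protects host cells from complement, fell as well. Genes of coagulation and clot lysis divided, and F3, the tissue factor that starts coagulation, was higher at 51.1, 38.2 and 43.5 FPKM in HC and 12.2, 12.3 and 14.9 FPKM in LC (log2 change 1.67 ± 0.13, adjusted p = 1.04e-05). PLAU, the urokinase that activates plasmin, was lower at 1.47, 0.957 and 0.957 FPKM in HC and 7.11, 5.55 and 5.92 FPKM in LC (log2 change -1.76 ± 0.17, adjusted p = 3.70e-05). The protease-activated receptor F2RL1 rose (20.7, 22.9 and 21.5 against 13.2, 12.1 and 13.1 FPKM, log2 change 0.72 ± 0.12, adjusted p = 0.00146). In the complement and coagulation list, 2 of 25 tested members rose and 10 fell, median log2 change -0.54 (2 and 7 with LC3 alone, median -0.23). The list of complement and coagulation counted 5 higher and 9 lower after quantile normalization, and 2 higher and 12 lower of 31 members without the minimum (median -0.53), since 2 had met it through LC alone and 1 through HC alone.

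IL36B and IL1B, cytokines of the interleukin 1 and 36 family, were lower in HC, and IL1B was low in amount in both diets. IL36B, an epithelial cytokine, stood at 4.18, 3.90 and 5.19 FPKM in HC and 12.1, 10.4 and 16.3 FPKM in LC (log2 change -1.34 ± 0.21, adjusted p = 0.00111). IL1B stood at 0.429, 0.189 and 0.377 FPKM in HC and 1.19, 1.46 and 1.87 FPKM in LC (log2 change -0.91 ± 0.16, adjusted p = 0.00198). IL1A, a cytokine that damaged cells release, stood at 0.258, 0.168 and 0.475 FPKM in HC and 0.505, 0.318 and 0.142 FPKM in LC, with overlap. CASP1, the caspase that matures IL1B, stood at 2.14, 1.63 and 1.61 FPKM in HC and 4.65, 7.12 and 7.30 FPKM in LC (log2 change -1.38 ± 0.17, adjusted p = 2.54e-04). The pore-forming gasdermins DFNA5 and GSDMA were higher, with DFNA5 at 50.4, 42.8 and 42.8 FPKM in HC and 6.66, 8.64 and 7.60 FPKM in LC (log2 change 2.43 ± 0.13, adjusted p = 5.09e-07). GSDMA, of the same family, stood at 1.26, 1.89 and 1.59 FPKM in HC and 0.131, 0.0311 and 0.0361 FPKM in LC (log2 change 1.27 ± 0.15, adjusted p = 1.73e-04), with LC close to 0. In this list, 2 of 20 tested members rose and 7 fell, median log2 change -0.30 (2 and 4 with LC3 alone, median -0.24). The list of interleukin 1 and interleukin 36 family counted 2 higher and 7 lower of 23 members without the minimum (median -0.19), since 2 had met it through LC alone and 1 through HC alone. IL17RE, the receptor chain for the epithelial cytokine IL17C, was lower at 1.41, 2.61 and 2.72 FPKM in HC and 6.91, 7.40 and 6.23 FPKM in LC (log2 change -1.30 ± 0.17, adjusted p = 3.28e-04). ZC3H12A, a ribonuclease that degrades cytokine messages and shares its locus with another gene, was lower at 4.70, 3.78 and 3.80 FPKM in HC and 16.8, 19.6 and 16.7 FPKM in LC (log2 change -1.88 ± 0.13, adjusted p = 3.68e-06). In the interleukin 17, 20 and 22 list, 1 of 13 tested members rose and 5 fell, median log2 change -0.25 (0 and 2 with LC3 alone, median -0.38). The list of interleukin 17, 20 and 22 family and targets counted 1 higher and 6 lower of 15 members without the minimum (median -0.28), since 1 had met it through LC alone and 1 through HC alone. PTGES, which makes prostaglandin E2, was lower at 7.65, 6.01 and 9.40 FPKM in HC and 27.9, 33.2 and 29.4 FPKM in LC (log2 change -1.86 ± 0.29, adjusted p = 0.00159). In the prostaglandin and leukotriene list, 1 of 16 tested members rose and 3 fell, median log2 change -0.16 (0 and 2 with LC3 alone, median -0.045, falls 5 without LC1). The list of prostaglandin and leukotriene synthesis counted 1 higher and 1 lower after quantile normalization.

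The largest log2 falls of the named genes with a symbol were in S100A8 and S100A12, calcium-binding proteins that neutrophils and stressed keratinocytes secrete. S100A8 stood at 48.1, 26.8 and 25.1 FPKM in HC and 2044, 3754 and 4067 FPKM in LC, and S100A12 at 46.4, 22.2 and 24.7 FPKM in HC and 1501, 2483 and 2758 FPKM in LC. In LC both were lowest in LC1, and in HC both were highest in HC1, with no overlap (-6.58 and -6.16 as log2 changes). Defining neutrophil markers were close to 0 in the same libraries, with CSF3R at no more than 0.135 FPKM and MPO at no more than 0.0625 FPKM in any HC or LC library where they were listed. The neutrophil chemokine receptor CXCR2 stood at 1.23, 0.941 and 1.30 FPKM in HC and 1.73, 1.96 and 2.004 FPKM in LC (log2 change -0.43 ± 0.15, adjusted p = 0.058). The summed neutrophil list, 129, 80.7 and 94.3 FPKM in HC and 3666, 6452 and 7095 FPKM in LC, consists mostly of the S100 genes. VNN2, a pantetheinase that frees vitamin B5 from its carrier, stood at 0.714, 0.443 and 0.695 FPKM in HC and 19.1, 26.2 and 27.9 FPKM in LC (log2 change -3.96 ± 0.19, adjusted p = 2.25e-07). ARG1, which splits arginine, stood at 27.1, 24.3 and 37.1 FPKM in HC and 98.3, 183 and 237 FPKM in LC (log2 change -2.44 ± 0.29, adjusted p = 3.50e-04). MMP9, a gelatinase of neutrophils and keratinocytes, was higher in HC at 4.604, 5.21 and 4.004 FPKM in HC and 0.755, 1.80 and 1.58 FPKM in LC (log2 change 1.26 ± 0.18, adjusted p = 5.23e-04). Of the 6 tested members of the neutrophil list, 1 had reached the minimum of 1 FPKM through LC alone. Without the minimum that list counted 1 higher and 5 lower of 7 members (median -2.44). In the neutrophil list, 1 of 6 tested members rose and 4 fell, median log2 change -3.20 (1 and 4 with LC3 alone, median -3.57). In the S100 list, 0 of 11 tested members rose and 2 fell, median log2 change -0.31 (0 and 3 with LC3 alone, median -0.33, falls 4 without LC1).

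RAB38, GPNMB, RAB27A and MYO5A, which serve pigment granules and related organelles, were lower in HC, while genes of pigment synthesis were near 0 or not listed. RAB38, a GTPase that carries cargo to melanosomes and related organelles, stood at 0.194, 0.532 and 0.187 FPKM in HC and 13.6, 14.2 and 13.4 FPKM in LC, a mean 45.1-fold higher in LC (log2 change -3.51 ± 0.15, adjusted p = 9.80e-08). GPNMB, a membrane glycoprotein of melanosomes and phagocytes, stood at 19.1, 15.7 and 19.2 FPKM in HC and 126, 152 and 219 FPKM in LC (log2 change -3.10 ± 0.18, adjusted p = 1.14e-06) and was highest in LC3. RAB27A, which tethers such granules to actin motors, fell too (0.888, 0.577 and 0.835 against 2.41, 2.83 and 2.70 FPKM, log2 change -1.05 ± 0.20, adjusted p = 0.00329). The motor MYO5A fell with it (3.64, 3.21 and 3.33 against 7.86, 7.02 and 9.46 FPKM, log2 change -1.05 ± 0.13, adjusted p = 1.90e-04). MLPH, the linker between them, was listed in HC1, LC1 and LC3 only, at 0.0525, 0.0193 and 0.128 FPKM. PMEL, the fibril protein of melanosomes, stood at 0.0968, 0.247 and 0.172 FPKM in HC and 0.215, 0.277 and 0.161 FPKM in LC, with overlap. OCA2, a melanosome channel, did not exceed 0.187 FPKM, and the pigment enzymes TYR, TYRP1 and DCT were listed in no library. In the melanocyte list, 1 of 7 tested members rose and 4 fell, median log2 change -1.05 (0 and 4 with LC3 alone, median -1.07), and its single rise, BACE2, was lost with LC3 alone (adjusted p = 0.053). The list of melanocyte genes counted 1 higher and 4 lower of 11 members without the minimum (median -0.16), since 2 had met it through LC alone.

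Immediate early genes, which growth factor and stress signals switch on within minutes, were higher in HC where they passed the test, apart from KLF6. FOS stood at 40.1, 40.4 and 47.0 FPKM in HC and 7.15, 10.7 and 11.04 FPKM in LC (log2 change 2.05 ± 0.16, adjusted p = 8.46e-06). Its relative FOSB stood at 1.37, 1.72 and 1.54 FPKM in HC and 0.0576, 0.0346 and 0.241 FPKM in LC (log2 change 1.196 ± 0.14, adjusted p = 1.50e-04). FOSL1 stood at 1.07, 1.39 and 1.08 FPKM in HC and 0.0511, 0.170 and 0.241 FPKM in LC (log2 change 0.92 ± 0.15, adjusted p = 0.00134). EGR1, a zinc finger factor, stood at 4.34, 4.47 and 6.48 FPKM in HC and 3.02, 1.747 and 1.68 FPKM in LC (log2 change 0.96 ± 0.18, adjusted p = 0.00294). ATF3, a stress-induced factor, stood at 2.71, 3.17 and 2.14 FPKM in HC and 1.1998, 1.10 and 1.09 FPKM in LC (log2 change 0.78 ± 0.15, adjusted p = 0.0028). The diets did not overlap for these genes. DUSP6, the phosphatase that ERK signalling induces to limit itself, stood at 15.9, 13.2 and 16.1 FPKM in HC and 5.82, 5.87 and 4.005 FPKM in LC (log2 change 1.38 ± 0.15, adjusted p = 8.09e-05). JUN, the partner of FOS, stood at 137, 194 and 211 FPKM in HC and 88.3, 122 and 105 FPKM in LC (log2 change 0.77 ± 0.19, adjusted p = 0.0139) and was lost in 3 of 18 alternatives, with adjusted p up to 0.0811. In the list, 11 of 21 tested members rose and 1 fell, median log2 change 0.41 (8 and 0 with LC3 alone, median 0.54, rises 7 without HC3). The fall was that of KLF6, which was lost with LC3 alone (adjusted p = 0.0898).

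AREG and EREG, ligands of the epidermal growth factor receptor, rose, while the receptor itself did not pass the test. AREG stood at 9.12, 5.28 and 9.38 FPKM in HC and 1.94, 1.73 and 2.41 FPKM in LC (log2 change 1.53 ± 0.19, adjusted p = 2.28e-04). EREG stood at 2.35, 1.18 and 2.08 FPKM in HC and 0.839, 0.515 and 0.392 FPKM in LC (log2 change 0.85 ± 0.18, adjusted p = 0.00626). ERRFI1, a feedback inhibitor induced by the receptor, stood at 16.2, 12.7 and 15.7 FPKM in HC and 6.45, 5.54 and 6.21 FPKM in LC (log2 change 1.16 ± 0.12, adjusted p = 5.26e-05). EGFR stood at 17.6, 29.6 and 25.9 FPKM in HC and 27.4, 26.3 and 34.6 FPKM in LC and overlapped (log2 change -0.28 ± 0.22, adjusted p = 0.361). The ligand BTC (lost in 6 of 18 alternatives, with adjusted p up to 0.177) and the receptors ERBB2 (lost in 8 of 18 alternatives, with adjusted p up to 0.126) and ERBB3 (lost in 8 of 18 alternatives, with adjusted p up to 0.131) were called lower. In the list, 3 of 15 tested members rose and 4 fell, median log2 change -0.28 (3 and 0 with LC3 alone, median 0.005, falls 1 without HC1 or HC3, 0 without HC2, 2 without LC1, LC2 or LC3). The list of EGF receptor family and ligands counted 3 higher and 1 lower after median-of-ratios scaling and 3 higher and 2 lower after quantile normalization.

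Targets of the YAP and TEAD regulators moved in both directions. CYR61, a matricellular protein, stood at 47.3, 31.1 and 37.1 FPKM in HC and 6.15, 5.73 and 3.37 FPKM in LC (log2 change 2.71 ± 0.36, adjusted p = 0.00111). CTGF, a member of the same family, stood at 3.23, 2.30 and 3.76 FPKM in HC and 0.928, 0.546 and 0.522 FPKM in LC (log2 change 1.29 ± 0.21, adjusted p = 0.00125). MYOF, a membrane repair protein, was lower at 4.71, 5.796 and 5.28 FPKM in HC and 16.8, 14.1 and 16.7 FPKM in LC (log2 change -1.43 ± 0.12, adjusted p = 1.12e-05). The receptor kinase AXL was lower at 5.10, 5.24 and 4.16 FPKM in HC and 12.996, 9.66 and 9.68 FPKM in LC (log2 change -1.01 ± 0.15, adjusted p = 8.58e-04). TEAD4, a DNA-binding partner of YAP, stood at 0.489, 0.632 and 1.01 FPKM in HC and 2.26, 1.64 and 2.28 FPKM in LC (log2 change -0.84 ± 0.17, adjusted p = 0.00451). YAP1 itself stood at 16.2, 22.1 and 21.5 FPKM in HC and 23.6, 20.6 and 24.3 FPKM in LC with overlap (log2 change -0.20 ± 0.16, adjusted p = 0.389). NUAK2 (-0.69) and CRIM1 (-0.66), which shares its locus, fell. In the list, 3 of 20 tested members rose and 10 fell, median log2 change -0.42 (3 and 6 with LC3 alone, median -0.32, falls 6 without HC2, HC3 or LC2). The list of YAP and TEAD targets counted 3 higher and 6 lower after median-of-ratios scaling and 3 higher and 6 lower after quantile normalization.

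The Notch pathway, in which ligands on neighbouring cells drive keratinocytes out of the basal layer, was lower in NOTCH1, NOTCH3 and JAG1. NOTCH1 stood at 5.31, 6.30 and 4.72 FPKM in HC and 13.8, 12.2 and 14.02 FPKM in LC (log2 change -1.16 ± 0.13, adjusted p = 8.41e-05). NOTCH3 stood at 9.58, 13.6 and 10.3 FPKM in HC and 18.6, 19.5 and 23.7 FPKM in LC (log2 change -0.84 ± 0.16, adjusted p = 0.00359). The ligand JAG1 stood at 9.19, 8.81 and 9.01 FPKM in HC and 15.8, 14.02 and 17.5 FPKM in LC (log2 change -0.74 ± 0.11, adjusted p = 7.24e-04). LFNG, which glycosylates the receptors and shares its locus with another gene, stood at 1.69, 1.54 and 1.18 FPKM in HC and 5.37, 6.03 and 5.66 FPKM in LC (log2 change -1.44 ± 0.15, adjusted p = 5.53e-05). Target genes split, with HEY1 higher at 8.40, 8.91 and 7.91 FPKM in HC and 3.01, 2.34 and 2.49 FPKM in LC (log2 change 1.38 ± 0.11, adjusted p = 1.26e-05). HES1 stood at 12.8, 16.96 and 19.5 FPKM in HC and 22.1, 26.0 and 24.4 FPKM in LC (log2 change -0.55 ± 0.15, adjusted p = 0.0185), lower but lost in 3 of 18 alternatives, with adjusted p up to 0.119. In the list, 1 of 16 tested members rose and 9 fell, median log2 change -0.54 (1 and 4 with LC3 alone, median -0.50). The list of Notch genes counted 1 higher and 11 lower of 19 members without the minimum (median -0.37), since 2 had met it through LC alone.

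In TGF-beta signalling, which restrains keratinocyte division, TGFB1, TGFBR1 and TGFBI were lower. TGFB1 stood at 7.07, 7.09 and 5.60 FPKM in HC and 17.5, 12.9 and 12.9 FPKM in LC (log2 change -1.02 ± 0.14, adjusted p = 4.12e-04). The receptor TGFBR1 stood at 2.18, 1.36 and 1.45 FPKM in HC and 4.47, 3.06 and 3.63 FPKM in LC (log2 change -0.83 ± 0.16, adjusted p = 0.00313). The target TGFBI stood at 18.7, 17.9 and 18.5 FPKM in HC and 43.7, 45.5 and 46.8 FPKM in LC (log2 change -1.26 ± 0.12, adjusted p = 4.00e-05). BMP7 and BMP6, ligands of the bone morphogenetic branch, were higher, with BMP7 at 4.77, 5.39 and 4.80 FPKM in HC and 2.33, 1.90 and 2.50 FPKM in LC (log2 change 0.89 ± 0.12, adjusted p = 3.50e-04). BMP6, which shares its locus with another gene, stood at 4.37, 3.70 and 3.32 FPKM in HC and 1.68, 1.502 and 1.30 FPKM in LC (log2 change 0.94 ± 0.14, adjusted p = 6.63e-04). SMAD1, which carries that branch to the nucleus, was lower at 8.14, 7.54 and 7.03 FPKM in HC and 13.5, 12.9 and 15.4 FPKM in LC (log2 change -0.80 ± 0.12, adjusted p = 6.20e-04). BMP2 was higher with all libraries (0.74) and lost with LC3 alone (adjusted p = 0.102). In the list, 3 of 32 tested members rose and 9 fell, median log2 change -0.40 (2 and 4 with LC3 alone, median -0.18, falls 4 without HC3, 5 without LC1). The list of TGF-beta and BMP genes counted 3 higher and 5 lower after median-of-ratios scaling and 4 higher and 4 lower after quantile normalization. Of Wnt genes, the secreted inhibitor WIF1 was higher at 3.98, 3.86 and 3.56 FPKM in HC and 0.165, 0.391 and 0.698 FPKM in LC (log2 change 1.77 ± 0.16, adjusted p = 2.42e-05). The inhibitor SFRP1 fell (20.8, 25.4 and 25.1 against 44.7, 42.5 and 49.5 FPKM, log2 change -0.92 ± 0.12, adjusted p = 3.18e-04). The receptor FZD10 fell as well (3.72, 2.95 and 3.62 against 6.30, 7.74 and 7.97 FPKM, log2 change -0.91 ± 0.13, adjusted p = 4.41e-04). In the Wnt list, 2 of 30 tested members rose and 4 fell, median log2 change -0.18 (1 and 2 with LC3 alone, median -0.16). The list of Wnt genes counted 1 higher and 6 lower of 35 members without the minimum (median -0.18), since 2 had met it through LC alone.

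**Figure D4:**
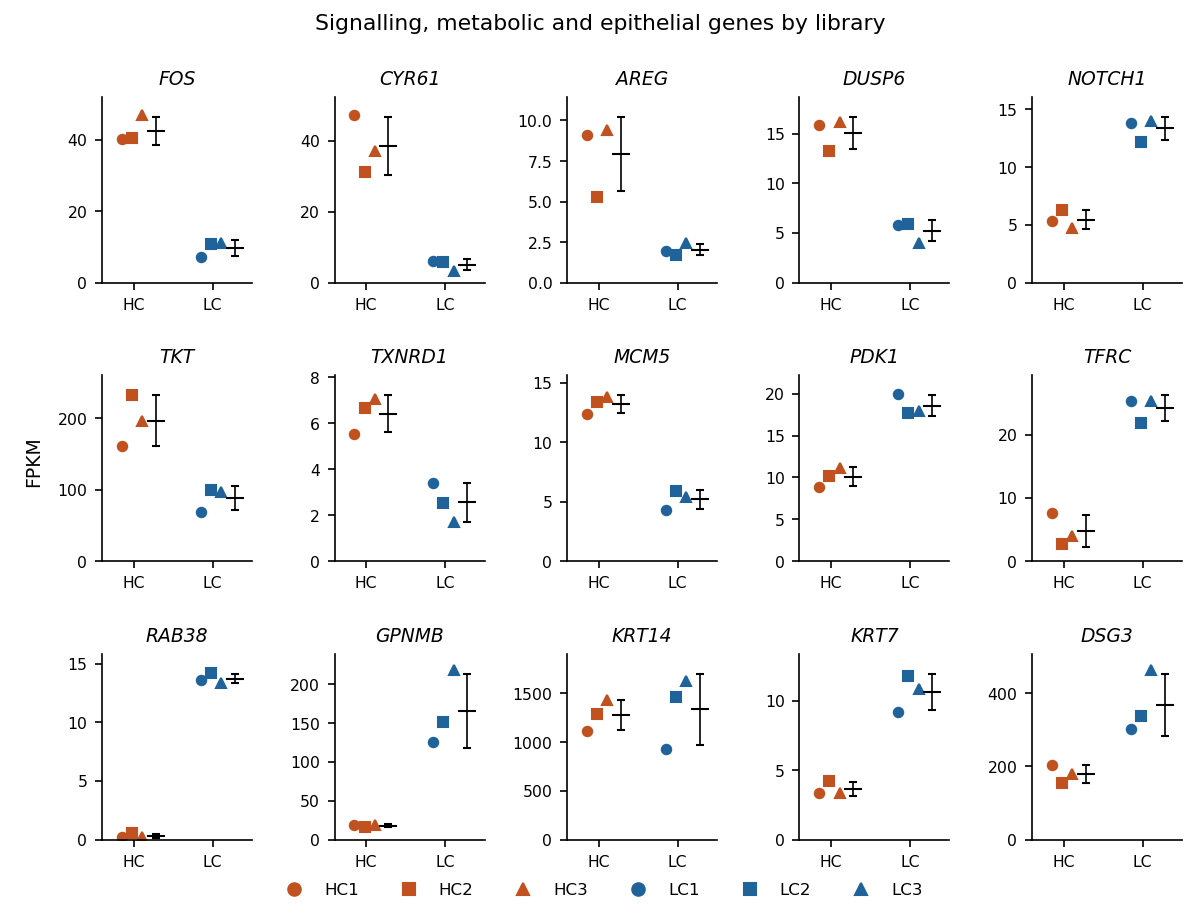
FPKM (y axis, starting at 0) of 15 genes of signalling, metabolism and the epithelium in each HC (orange) and LC (blue) library, with mean and SD as black bars (n = 3). FOS, CYR61, AREG, DUSP6, TKT, TXNRD1 and MCM5 are higher in every HC library, KRT14 overlaps between the diets, and the rest of the 15 are lower in every HC library.

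Genes of DNA replication that passed the test were higher in HC across the machinery. Of the helicase subunits, MCM2 stood at 9.83, 9.81 and 10.53 FPKM in HC and 3.28, 5.07 and 5.40 FPKM in LC (log2 change 1.01 ± 0.15, adjusted p = 7.43e-04) and MCM5 at 12.4, 13.4 and 13.8 FPKM in HC and 4.31, 5.89 and 5.42 FPKM in LC (log2 change 1.2003 ± 0.13, adjusted p = 6.17e-05). MCM4 (12.99, 14.1 and 15.3 against 7.04, 8.87 and 8.89 FPKM, 0.71) and MCM6 (13.1, 10.9 and 11.7 against 6.92, 6.99 and 6.34 FPKM, 0.73) rose with them. CDT1, which loads that helicase, stood at 3.23, 5.31 and 4.36 FPKM in HC and 0.978, 1.47 and 1.52 FPKM in LC (log2 change 1.18 ± 0.17, adjusted p = 5.27e-04). GINS1, which completes it, stood at 4.84, 3.64 and 4.38 FPKM in HC and 2.85, 1.23 and 2.17 FPKM in LC (log2 change 0.81 ± 0.19, adjusted p = 0.00871). CCNE1, the cyclin of S phase entry, stood at 2.98, 2.96 and 1.93 FPKM in HC and 0.883, 0.946 and 0.810 FPKM in LC (log2 change 0.93 ± 0.16, adjusted p = 0.00154). TK1, which salvages thymidine, stood at 4.94, 3.77 and 6.37 FPKM in HC and 1.35, 2.45 and 1.86 FPKM in LC (log2 change 1.06 ± 0.18, adjusted p = 0.00152). UHRF1, which copies DNA methylation, stood at 4.37, 4.94 and 6.13 FPKM in HC and 1.85, 1.99 and 1.96 FPKM in LC (log2 change 1.06 ± 0.14, adjusted p = 3.31e-04). No library of HC overlapped with LC for these genes. In the replication list, 20 of 44 tested members rose and 0 fell, median log2 change 0.42 (9 and 0 with LC3 alone, median 0.35). Among mitosis genes, CDC20, an activator of the anaphase ubiquitin ligase, stood at 4.16, 4.90 and 4.53 FPKM in HC and 2.01, 2.04 and 1.76 FPKM in LC (log2 change 0.91 ± 0.14, adjusted p = 7.71e-04). ANLN, a cytokinesis scaffold, stood at 5.18, 3.78 and 4.74 FPKM in HC and 1.81, 1.397 and 1.49 FPKM in LC (log2 change 1.11 ± 0.13, adjusted p = 1.61e-04). CKS2, a kinase subunit, stood at 19.8, 14.1 and 16.6 FPKM in HC and 4.601, 8.09 and 5.18 FPKM in LC (log2 change 1.38 ± 0.19, adjusted p = 4.34e-04). In the mitosis list, 15 of 34 tested members rose and 1 fell, median log2 change 0.47 (3 and 0 with LC3 alone, median 0.34, rises 7 without HC3, 9 without LC2). The list of mitosis and G2/M counted 25 higher and 0 lower after quantile normalization. The proliferation antigen MKI67 overlapped between the diets at 1.1196, 1.90 and 2.21 FPKM in HC and 0.632, 1.01 and 1.13 FPKM in LC (log2 change 0.50 ± 0.19, adjusted p = 0.0743).

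Enzymes of the pentose phosphate pathway, TKT, TALDO1 and PGD, were higher in HC, as was malic enzyme. TKT, a sugar-shuffling enzyme of the pentose phosphate pathway, stood at 161, 232 and 196 FPKM in HC and 69.3, 99.5 and 97.0 FPKM in LC (log2 change 1.14 ± 0.18, adjusted p = 0.00107). TALDO1, its partner in that exchange, stood at 54.9, 60.2 and 54.0 FPKM in HC and 26.5, 33.2 and 32.2 FPKM in LC (log2 change 0.86 ± 0.13, adjusted p = 7.06e-04). PGD, which yields NADPH in that pathway, stood at 147, 194 and 172 FPKM in HC and 82.7, 119 and 107 FPKM in LC (log2 change 0.74 ± 0.17, adjusted p = 0.00835). Malic enzyme ME1, which yields it from malate, stood at 284, 321 and 289 FPKM in HC and 147, 163 and 166 FPKM in LC (log2 change 0.90 ± 0.15, adjusted p = 0.00131). TXNRD1, thioredoxin reductase, shares its locus with another gene and stood at 5.50, 6.66 and 7.04 FPKM in HC and 3.41, 2.54 and 1.70 FPKM in LC (log2 change 1.08 ± 0.17, adjusted p = 0.00109). NFE2L2, the NRF2 factor that induces such genes, was lower at 19.9, 18.1 and 18.6 FPKM in HC and 28.5, 26.5 and 25.7 FPKM in LC (log2 change -0.49 ± 0.11, adjusted p = 0.00819) and lost with LC3 alone (adjusted p = 0.106). Its classic target NQO1 stood at 36.1, 33.9 and 35.0 FPKM in HC and 14.8, 24.3 and 29.4 FPKM in LC (log2 change 0.65 ± 0.20, adjusted p = 0.033) and was lost in 6 of 18 alternatives, with adjusted p up to 0.32. GPX2, the epithelial glutathione peroxidase, fell (8.56, 11.3 and 10.2 against 15.7, 17.1 and 20.4 FPKM, log2 change -0.76 ± 0.15, adjusted p = 0.0041). In the glutathione and NRF2 list, 9 of 26 tested members rose and 4 fell, median log2 change 0.38 (6 and 2 with LC3 alone, median 0.24, rises 5 without HC3). The list of glutathione and NRF2 targets counted 15 higher and 4 lower after median-of-ratios scaling.

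Hypoxia-responsive genes that passed the test were lower in HC, apart from CA12. PDK1, which keeps pyruvate out of mitochondria, stood at 8.89, 10.2 and 11.2 FPKM in HC and 19.99, 17.7 and 17.9 FPKM in LC (log2 change -0.82 ± 0.12, adjusted p = 6.39e-04). BNIP3, a mitophagy receptor, stood at 45.6, 35.7 and 38.8 FPKM in HC and 75.6, 77.5 and 77.4 FPKM in LC (log2 change -0.93 ± 0.14, adjusted p = 7.67e-04). The glucose transporter SLC2A1 stood at 18.9, 19.5 and 18.3 FPKM in HC and 28.0, 30.8 and 33.2 FPKM in LC (log2 change -0.67 ± 0.12, adjusted p = 0.00281). NDRG1, a differentiation gene induced by low oxygen, stood at 184, 224 and 194 FPKM in HC and 300.1, 341 and 351 FPKM in LC (log2 change -0.72 ± 0.14, adjusted p = 0.00425), and ANKRD37 (-0.97, shared locus) and PFKFB4 (-0.61), a regulator of glycolysis, fell. CA12, a carbonic anhydrase of the cell surface, went against them at 449, 570.4 and 508 FPKM in HC and 183, 232 and 234 FPKM in LC (log2 change 1.23 ± 0.17, adjusted p = 4.37e-04). HIF1A, the oxygen-regulated factor, stood at 16.5, 18.0 and 20.3 FPKM in HC and 23.0, 23.4 and 29.5 FPKM in LC (log2 change -0.44 ± 0.14, adjusted p = 0.036), lower but lost in 7 of 18 alternatives, with adjusted p up to 0.125. In the list, 1 of 24 tested members rose and 10 fell, median log2 change -0.23 (1 and 8 with LC3 alone, median -0.28).

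Uptake genes for iron, copper and vitamins changed singly. TFRC, the transferrin receptor for iron, stood at 7.64, 2.74 and 3.99 FPKM in HC and 25.4, 21.8 and 25.3 FPKM in LC (log2 change -2.21 ± 0.24, adjusted p = 1.66e-04). The copper transporter SLC31A2 stood at 33.7, 28.6 and 29.2 FPKM in HC and 57.1, 63.1 and 62.7 FPKM in LC (log2 change -0.98 ± 0.12, adjusted p = 2.73e-04). HMOX1, which frees iron from haem, was higher (72.1, 60.3 and 97.7 against 50.2, 46.2 and 35.8 FPKM, log2 change 0.77 ± 0.19, adjusted p = 0.014) but not without HC3 (adjusted p = 0.064). In the zinc, iron and copper list, 1 of 29 tested members rose and 5 fell, median log2 change -0.025 (1 and 2 with LC3 alone, median -0.15, falls 3 without HC2 or LC3, 2 without HC3). The list of zinc, iron and copper handling counted 2 higher and 2 lower after median-of-ratios scaling and 3 higher and 3 lower after quantile normalization, and 1 higher and 7 lower of 35 members without the minimum (median -0.086), since 1 had met it through LC alone and 1 through HC alone. The receptor CD320 for vitamin B12 stood at 152, 198 and 181 FPKM in HC and 66.3, 91.1 and 81.7 FPKM in LC (log2 change 1.14 ± 0.16, adjusted p = 4.61e-04). FPGS, which traps folate in cells, stood at 125, 182 and 151 FPKM in HC and 54.6, 82.9 and 71.1 FPKM in LC (log2 change 1.13 ± 0.18, adjusted p = 0.0013). TCN1, a secreted binder of vitamin B12, was lower at 0.0796, 0.369 and 0.582 FPKM in HC and 2.002, 2.45 and 1.83 FPKM in LC (log2 change -1.22 ± 0.17, adjusted p = 4.79e-04). In the vitamin list, 5 of 29 tested members rose and 3 fell, median log2 change 0.13 (3 and 1 with LC3 alone, median 0.027, rises 3 without HC3, falls 1 without HC2 or LC1). The list of vitamin transport and use counted 7 higher and 1 lower after median-of-ratios scaling and 7 higher and 1 lower after quantile normalization. In the list of pantetheinases and coenzyme A synthesis, 1 of 12 tested members rose and 4 fell, median log2 change -0.063 (0 and 3 with LC3 alone, median -0.17), with PPCS (-0.55, shared locus) among the falls.

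Among enzymes of ketone bodies and short-chain fatty acids, BDH1 and ACADS were higher in HC. BDH1, which makes 3-hydroxybutyrate, stood at 951, 1056 and 982 FPKM in HC and 312, 509.9 and 484 FPKM in LC (log2 change 1.22 ± 0.20, adjusted p = 0.00115). ACADS, which oxidises butyryl-CoA, stood at 562, 697 and 624 FPKM in HC and 210.1, 357 and 334 FPKM in LC (log2 change 1.09 ± 0.21, adjusted p = 0.00355). LC1 was the lowest library for both, and the change with LC3 alone was smaller, at 1.04 and 0.90. In the list, 8 of 18 tested members rose and 2 fell, median log2 change 0.42 (5 and 0 with LC3 alone, median 0.18, rises 5 without HC3). Mitochondrial carriers of the SLC25 family divided, with SLC25A25, an ATP and phosphate exchanger, at 25.9, 28.1 and 29.0 FPKM in HC and 4.90, 5.90 and 4.4998 FPKM in LC (log2 change 2.24 ± 0.14, adjusted p = 1.66e-06). SLC25A33, a pyrimidine carrier, stood at 53.9, 43.2 and 54.5 FPKM in HC and 18.9, 25.8 and 28.2 FPKM in LC (log2 change 1.04 ± 0.16, adjusted p = 9.07e-04). SLC25A47 stood lower at 1.07, 1.42 and 1.84 FPKM in HC and 7.48, 6.06 and 8.82 FPKM in LC (log2 change -1.79 ± 0.17, adjusted p = 3.22e-05). In that family, 6 of 35 tested members rose and 4 fell, median log2 change 0.042 (3 and 1 with LC3 alone, median 0.053, falls 2 without HC1, LC1 or LC2). The list of SLC25 mitochondrial carriers counted 9 higher and 2 lower after median-of-ratios scaling and 8 higher and 1 lower after quantile normalization.

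Several detoxifying genes were higher. SLC47A2, an exporter of organic cations, stood at 7.13, 8.84 and 6.998 FPKM in HC and 1.59, 0.874 and 0.793 FPKM in LC (log2 change 2.07 ± 0.15, adjusted p = 6.54e-06). EPHX2, soluble epoxide hydrolase, stood at 12.8, 17.8 and 15.6 FPKM in HC and 5.03, 7.14 and 8.48 FPKM in LC (log2 change 1.07 ± 0.17, adjusted p = 0.00101). CES2, a carboxylesterase, stood at 648, 836 and 743 FPKM in HC and 301, 390.1 and 401 FPKM in LC (log2 change 1.03 ± 0.18, adjusted p = 0.00179). SULT2B1, which sulphates cholesterol, stood at 68.7, 72.7 and 105 FPKM in HC and 41.2, 40.5 and 39.6 FPKM in LC (log2 change 0.98 ± 0.16, adjusted p = 0.00141). Among xenobiotic genes, 7 of 17 tested members rose and 1 fell, median log2 change 0.18 (4 and 0 with LC3 alone, median 0.24, rises 4 without HC1 or HC3). Of glucocorticoid-responsive genes, ZBTB16 stood at 0.553, 0.654 and 0.604 FPKM in HC and 4.64, 4.29 and 1.94 FPKM in LC (log2 change -1.47 ± 0.22, adjusted p = 7.94e-04) with a smaller change for LC3 alone (-0.87), GLUL, glutamine synthetase, at 28.5, 26.6 and 28.0 FPKM in HC and 67.3, 62.2 and 61.5 FPKM in LC (log2 change -1.17 ± 0.11, adjusted p = 3.70e-05). ANGPTL4, an inhibitor of lipoprotein lipase, stood at 4.16, 4.35 and 4.84 FPKM in HC and 6.51, 8.03 and 8.69 FPKM in LC (log2 change -0.68 ± 0.14, adjusted p = 0.00482). In that list, 2 of 16 tested members rose and 4 fell, median log2 change -0.23 (1 and 3 with LC3 alone, median -0.23). The list of glucocorticoid-responsive genes counted 3 higher and 3 lower after median-of-ratios scaling and 3 higher and 3 lower after quantile normalization.

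Amino acid enzymes changed at single steps. NOS2, which makes nitric oxide from arginine, was higher at 21.0, 18.2 and 34.8 FPKM in HC and 6.99, 6.63 and 6.02 FPKM in LC (log2 change 1.71 ± 0.19, adjusted p = 1.21e-04). ARG1 fell, as given above, and SMS, which makes spermine, was lower at 7.497, 6.31 and 6.65 FPKM in HC and 13.05, 13.3 and 12.6 FPKM in LC (log2 change -0.84 ± 0.11, adjusted p = 2.51e-04). In the arginine and polyamine list, 5 of 21 tested members rose and 3 fell, median log2 change 0.14 (1 and 2 with LC3 alone, median 0.18, rises 3 without HC2 or HC3). The list of arginine, ornithine and polyamines counted 8 higher and 2 lower after median-of-ratios scaling, and 5 higher and 3 lower of 21 members without the minimum (median 0.14), since 1 had met it through LC alone and 1 through HC alone. CBS, which directs homocysteine to cysteine, was higher at 30.6, 40.5 and 36.2 FPKM in HC and 14.7, 16.5 and 16.8 FPKM in LC (log2 change 1.11 ± 0.13, adjusted p = 1.45e-04). In the methionine list, 3 of 12 tested members rose and 1 fell, median log2 change 0.04 (1 and 0 with LC3 alone, median 0.15, rises 1 without HC2, HC3 or LC3). The list of methionine cycle and transsulfuration counted 3 higher and 1 lower of 13 members without the minimum (median 0.02), since 1 had met it through LC alone and 1 through HC alone. ASNS, asparagine synthetase, was lower at 5.87, 6.27 and 6.17 FPKM in HC and 11.3, 9.91 and 12.2 FPKM in LC (log2 change -0.77 ± 0.11, adjusted p = 5.18e-04). PSAT1 of serine synthesis was higher, but its call was lost in 6 of 18 alternatives, with adjusted p up to 0.166. In the list of serine, glycine and one-carbon genes, 5 of 20 tested members rose and 2 fell, median log2 change -0.068 (0 and 1 with LC3 alone, median -0.03, rises 3 without HC2 or LC3, 2 without HC3).

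Keratins moved in both directions. KRT80 stood at 94.8, 70.2 and 123 FPKM in HC and 35.2, 38.5 and 33.3 FPKM in LC (log2 change 1.37 ± 0.19, adjusted p = 4.25e-04). KRT23 stood at 55.7, 57.6 and 86.2 FPKM in HC and 17.9, 30.6 and 30.3 FPKM in LC (log2 change 1.32 ± 0.22, adjusted p = 0.00188). KRT7, a keratin of simple epithelia, was lower at 3.38, 4.21 and 3.33 FPKM in HC and 9.21, 11.8 and 10.9 FPKM in LC (log2 change -1.32 ± 0.13, adjusted p = 5.09e-05). KRT4, of mucosal epithelium, was lower (17.9, 16.1 and 29.2 against 31.6, 60.1 and 69.8 FPKM) but not without HC2 (adjusted p = 0.053). In the keratin list, 2 of 8 tested members rose and 2 fell, median log2 change 0.20 (2 and 2 with LC3 alone, median -0.045). TGM3, a transglutaminase that crosslinks the cornified envelope, was lower at 247, 256 and 301 FPKM in HC and 428, 594 and 586 FPKM in LC (log2 change -0.99 ± 0.18, adjusted p = 0.00232). In the envelope list, 2 of 13 tested members rose and 2 fell, median log2 change 0.11 (0 and 1 with LC3 alone, median -0.16). The call of TCHH, trichohyalin, was lost with LC3 alone (adjusted p = 0.0506), and that of RPTN, repetin, in 2 of 18 alternatives, with adjusted p up to 0.0737. ALOX12B, a lipoxygenase that ties lipids to the envelope, was higher at 5.06, 5.96 and 8.68 FPKM in HC and 2.41, 2.34 and 2.55 FPKM in LC (log2 change 1.11 ± 0.17, adjusted p = 7.29e-04). The sterol exporter ABCA1, which shares its locus with another gene, was lower at 0.664, 0.686 and 0.656 FPKM in HC and 3.39, 1.87 and 2.42 FPKM in LC (log2 change -1.07 ± 0.16, adjusted p = 7.93e-04). In the lipid barrier list, 2 of 21 tested members rose and 3 fell, median log2 change -0.21 (1 and 2 with LC3 alone, median -0.23, rises 4 without HC2, falls 5 without HC1). The list of ceramide and lipid barrier synthesis counted 4 higher and 3 lower after median-of-ratios scaling and 4 higher and 2 lower after quantile normalization, and 2 higher and 5 lower of 26 members without the minimum (median -0.21), since 2 had met it through LC alone and 1 through HC alone.

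Proteases and sugar-adding enzymes of the epithelial surface held single large changes. PRSS27, a membrane-anchored serine protease of squamous epithelium, stood at 28.4, 26.1 and 40.7 FPKM in HC and 6.03, 7.13 and 5.29 FPKM in LC (log2 change 2.18 ± 0.16, adjusted p = 7.43e-06). Among kallikreins and serine proteases, 3 of 12 tested members rose and 1 fell, median log2 change -0.061 (1 and 0 with LC3 alone, median -0.068). SERPINB11 was called higher and SERPINB7 lower, but the first was lost in 9 of 18 alternatives, with adjusted p up to 0.317 and the second without LC2 (adjusted p = 0.057). In the SERPINB list, 1 of 7 tested members rose and 1 fell, median log2 change 0.071 (0 and 1 with LC3 alone, median -0.12). SPINK9, a kallikrein inhibitor of skin, was lower at 249.7, 161 and 218 FPKM in HC and 684, 1265 and 1312 FPKM in LC (log2 change -2.34 ± 0.25, adjusted p = 6.66e-05). FUT6, a fucosyltransferase, had the highest log2 rise of the genes taken by the naming rule, at 56.4, 30.9 and 54.5 FPKM in HC and 5.55, 5.47 and 4.12 FPKM in LC, and a mean 9.37-fold that of LC (log2 change 2.96 ± 0.21, adjusted p = 7.64e-06). ST6GALNAC2, a sialyltransferase, was lower at 9.22, 11.3 and 9.61 FPKM in HC and 22.2, 20.4 and 21.5 FPKM in LC (log2 change -1.02 ± 0.12, adjusted p = 1.05e-04). In the glycosyltransferase list, 2 of 21 tested members rose and 5 fell, median log2 change -0.11 (1 and 2 with LC3 alone, median -0.09, rises 4 without HC2, falls 3 without HC1 or HC3, 2 without HC2 or LC3). The list of glycosyltransferases of fucose, sialic acid and mucins counted 3 higher and 3 lower after median-of-ratios scaling and 3 higher and 2 lower after quantile normalization, and 2 higher and 5 lower of 26 members without the minimum (median -0.17), since 2 had met it through LC alone.

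DSG3 and those basement membrane genes that passed the test were lower in HC. DSG3, the desmoglein of lower and mucosal layers, stood at 205, 155 and 179.5 FPKM in HC and 303, 339 and 464 FPKM in LC (log2 change -1.01 ± 0.20, adjusted p = 0.00388) and was highest in LC3. GJB2, a gap junction connexin, was lower (939, 699.8 and 1046 against 1561, 1492 and 1474 FPKM, log2 change -0.77 ± 0.18, adjusted p = 0.0103) but not with LC3 alone (adjusted p = 0.0649). ITGA6, the integrin chain of hemidesmosomes, stood at 15.7, 14.9 and 13.8 FPKM in HC and 28.7, 22.2 and 26.4 FPKM in LC (log2 change -0.75 ± 0.13, adjusted p = 0.00155). The laminin chain LAMA5 fell (6.03, 7.28 and 5.62 against 16.1, 13.3 and 13.8 FPKM, log2 change -1.08 ± 0.13, adjusted p = 1.59e-04). The chain LAMB1 also fell (3.90, 2.95 and 3.26 against 11.9, 8.27 and 6.52 FPKM, log2 change -1.15 ± 0.19, adjusted p = 0.00149), with its highest value in LC1. In the basement membrane and hemidesmosome list, 0 of 28 tested members rose and 9 fell, median log2 change -0.50 (0 and 3 with LC3 alone, median -0.36, falls 5 without HC1, HC3 or LC2). The list of basement membrane genes counted 0 higher and 9 lower of 28 members without the minimum (median -0.50), since 2 had met it through LC alone. MMP14, a membrane collagenase, stood at 36.1, 54.2 and 43.4 FPKM in HC and 69.0, 74.7 and 81.3 FPKM in LC (log2 change -0.75 ± 0.17, adjusted p = 0.00763). MMP23B stood at 0.502, 1.07 and 0.484 FPKM in HC and 3.72, 2.31 and 3.27 FPKM in LC (log2 change -1.28 ± 0.17, adjusted p = 4.02e-04). For matrix proteases and inhibitors, 2 of 17 tested members rose and 3 fell, median log2 change -0.29 (1 and 2 with LC3 alone, median -0.067, falls 5 without LC3). The list of matrix proteases and inhibitors counted 2 higher and 2 lower after median-of-ratios scaling and 3 higher and 2 lower after quantile normalization.

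COL1A1, PDGFRB, PECAM1, VWF and SPARCL1, genes of the tissue under the epithelium, differed less with LC3 alone. For all of them but COL1A1, LC3 still lay above every HC library. The log2 change with LC3 alone was -0.58 for PDGFRB (-1.07 with all LC libraries), -0.54 for VWF and -1.32 for SPARCL1. The fibroblast marker TCF21 went the other way, at 8.64, 7.29 and 8.41 FPKM in HC and 5.23, 4.03 and 2.49 FPKM in LC. Its log2 change was 0.93, and 1.38 with LC3 alone, and its call was lost in 7 of 18 alternatives. COL1A1, the main fibrillar collagen of fibroblasts, stood at 29.5, 22.9 and 28.0 FPKM in HC and 71.7, 38.4 and 27.5 FPKM in LC (log2 change -0.65 ± 0.34, adjusted p = 0.193), with LC3 inside the range of HC. PDGFRB, a receptor of fibroblasts and pericytes, was called lower (1.60, 0.722 and 0.962 against 5.84, 2.87 and 2.09 FPKM) but lost in 4 of 18 alternatives, with adjusted p up to 0.233, the highest with LC3 alone. In the fibroblast list, 1 of 20 tested members rose and 3 fell, median log2 change -0.65 (1 and 0 with LC3 alone, median -0.057, falls 1 without HC2, 11 without LC3). The list of fibroblast markers counted 1 higher and 3 lower of 20 members without the minimum (median -0.65), since 1 had met it through LC alone and 1 through HC alone. PECAM1, an adhesion molecule of endothelium, stood at 3.72, 1.65 and 2.58 FPKM in HC and 15.4, 7.27 and 4.51 FPKM in LC (log2 change -1.35 ± 0.44, adjusted p = 0.0556). VWF, which endothelium stores for clotting, stood at 4.23, 3.59 and 3.77 FPKM in HC and 12.2, 8.33 and 6.05 FPKM in LC (log2 change -0.97 ± 0.21, adjusted p = 0.0065), lost with LC3 alone (adjusted p = 0.14). SPARCL1, a matrix protein of vessel walls, stood at 2.51, 0.644 and 0.883 FPKM in HC and 32.0, 14.3 and 4.53 FPKM in LC, had a log2 change of -2.67 and was lost in 10 of 18 alternatives, with adjusted p up to 0.278. In the endothelial list, 0 of 12 tested members rose and 2 fell, median log2 change -0.93 (0 and 0 with LC3 alone, median -0.28, falls 6 without LC3). The list of endothelial markers counted 0 higher and 3 lower of 16 members without the minimum (median -0.64), since 2 had met it through LC alone. Skeletal muscle, adipocyte and nerve lists held 5, 2 and 4 tested members, of which TNNT1 (1.45), PNPLA2 (1.03) and STMN2 (1.17) rose and ERBB3 was called lower, while lists of mast cells with eosinophils and of red blood cells held 0.

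Transcription factors of epithelial differentiation were lower where firmly called. ELF3 stood at 27.0, 28.1 and 29.0 FPKM in HC and 38.3, 69.3 and 72.5 FPKM in LC (log2 change -1.02 ± 0.20, adjusted p = 0.00415), with LC1 nearest to HC. BARX2, a homeobox factor, stood at 18.0, 18.5 and 15.2 FPKM in HC and 24.9, 41.2 and 37.5 FPKM in LC (log2 change -0.94 ± 0.18, adjusted p = 0.00316). RARG, a retinoic acid receptor, stood at 15.1, 17.7 and 15.2 FPKM in HC and 24.9, 25.8 and 26.7 FPKM in LC (log2 change -0.66 ± 0.12, adjusted p = 0.0021). ZNF750, which switches keratinocytes to late differentiation and shares its locus, stood at 15.2, 19.97 and 20.3 FPKM in HC and 27.6, 38.4 and 38.1 FPKM in LC (log2 change -0.87 ± 0.18, adjusted p = 0.00516). SOX15 (-0.80, shared locus) also fell. KLF4, which drives barrier formation, was higher (149, 138 and 137 against 76.7, 90.9 and 95.3 FPKM, log2 change 0.69 ± 0.14, adjusted p = 0.00508) but not with LC3 alone (adjusted p = 0.0562). In the list, 4 of 31 tested members rose and 6 fell, median log2 change -0.0012 (0 and 5 with LC3 alone, median -0.072, rises 2 without HC3). The list of epithelial transcription factors counted 8 higher and 5 lower after median-of-ratios scaling and 5 higher and 5 lower after quantile normalization.

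Few genes of ribosome assembly passed the test on the deposited scale. For ribosome biogenesis, 2 of 39 tested members rose and 2 fell, median log2 change 0.0056 (0 and 3 with LC3 alone, median -0.051, falls 4 without LC1). The list of ribosome biogenesis counted 6 higher and 0 lower after median-of-ratios scaling and 6 higher and 3 lower after quantile normalization. For mitochondrial ribosomal proteins, 4 of 69 tested members rose and 1 fell, median log2 change 0.12 (0 and 2 with LC3 alone, median -0.043, rises 7 without HC1 or LC2, 1 without HC2, 0 without HC3, falls 6 without LC1). The list of mitochondrial ribosomal proteins counted 16 higher and 1 lower after median-of-ratios scaling and 10 higher and 2 lower after quantile normalization. Of heat shock genes, HSPA6 stood at 4.80, 7.20 and 6.69 FPKM in HC and 1.96, 2.24 and 2.32 FPKM in LC (log2 change 1.17 ± 0.20, adjusted p = 0.00167). The small heat shock protein CRYAB stood at 18.8, 15.95 and 16.6 FPKM in HC and 10.9, 9.87 and 7.96 FPKM in LC (log2 change 0.78 ± 0.14, adjusted p = 0.00179). The chaperonin subunit CCT5 stood at 66.2, 81.3 and 80.0 FPKM in HC and 40.0, 49.6 and 47.3 FPKM in LC (log2 change 0.72 ± 0.14, adjusted p = 0.00378). In the heat shock list, 6 of 38 tested members rose and 1 fell, median log2 change 0.23 (4 and 0 with LC3 alone, median 0.093, rises 3 without HC3). The list of heat shock proteins and cytosolic chaperones counted 16 higher and 0 lower after median-of-ratios scaling. CRELD2, a factor of the endoplasmic reticulum stress response, stood at 38.2, 39.8 and 45.2 FPKM in HC and 15.8, 24.2 and 22.4 FPKM in LC (log2 change 0.96 ± 0.16, adjusted p = 0.00158). In the endoplasmic reticulum list, 3 of 35 tested members rose and 4 fell, median log2 change -0.019 (1 and 0 with LC3 alone, median -0.014, rises 1 without HC3, LC1 or LC3, falls 1 without HC2 or LC3, 0 without HC3). The list of endoplasmic reticulum chaperones and stress counted 4 higher and 1 lower after median-of-ratios scaling and 3 higher and 3 lower after quantile normalization. Of lysosomal cathepsins, which digest proteins, those firmly called were lower, with CTSB at 50.2, 49.6 and 57.1 FPKM in HC and 87.2, 93.7 and 89.4 FPKM in LC (log2 change -0.78 ± 0.12, adjusted p = 0.00104). CTSC, which activates granule proteases, stood at 110.1, 118 and 115 FPKM in HC and 157, 193 and 199 FPKM in LC (log2 change -0.67 ± 0.14, adjusted p = 0.00544). CTSL stood at 4.83, 3.90 and 4.77 FPKM in HC and 6.90, 10.7 and 8.63 FPKM in LC (log2 change -0.81 ± 0.17, adjusted p = 0.00568). CTSA was called higher and lost in 2 of 18 alternatives, with adjusted p up to 0.0706. ATP6V1C2, a subunit of the proton pump that shares its locus, was higher at 55.6, 37.7 and 64.0 FPKM in HC and 20.4, 20.3 and 19.5 FPKM in LC (log2 change 1.31 ± 0.17, adjusted p = 2.54e-04). In the lysosome list, 6 of 44 tested members rose and 9 fell, median log2 change -0.086 (1 and 6 with LC3 alone, median -0.15, rises 1 without HC3). The list of lysosome and cathepsins counted 9 higher and 9 lower after median-of-ratios scaling. Of ion channels and pumps, the pump regulator FXYD3 fell (777, 1081 and 940.3 against 1335, 1747 and 1801 FPKM, log2 change -0.80 ± 0.18, adjusted p = 0.00767). The potassium channel KCNK1 fell (2.32, 2.19 and 2.999 against 4.76, 4.78 and 4.68 FPKM, log2 change -0.72 ± 0.13, adjusted p = 0.00186). In the channel and pump list, 4 of 27 tested members rose and 7 fell, median log2 change -0.13 (0 and 4 with LC3 alone, median -0.057, rises 2 without LC2, falls 4 without HC1, HC3 or LC2). The list of sodium pump, channels and their regulators counted 6 higher and 4 lower after median-of-ratios scaling and 6 higher and 4 lower after quantile normalization.

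**Figure D5:**
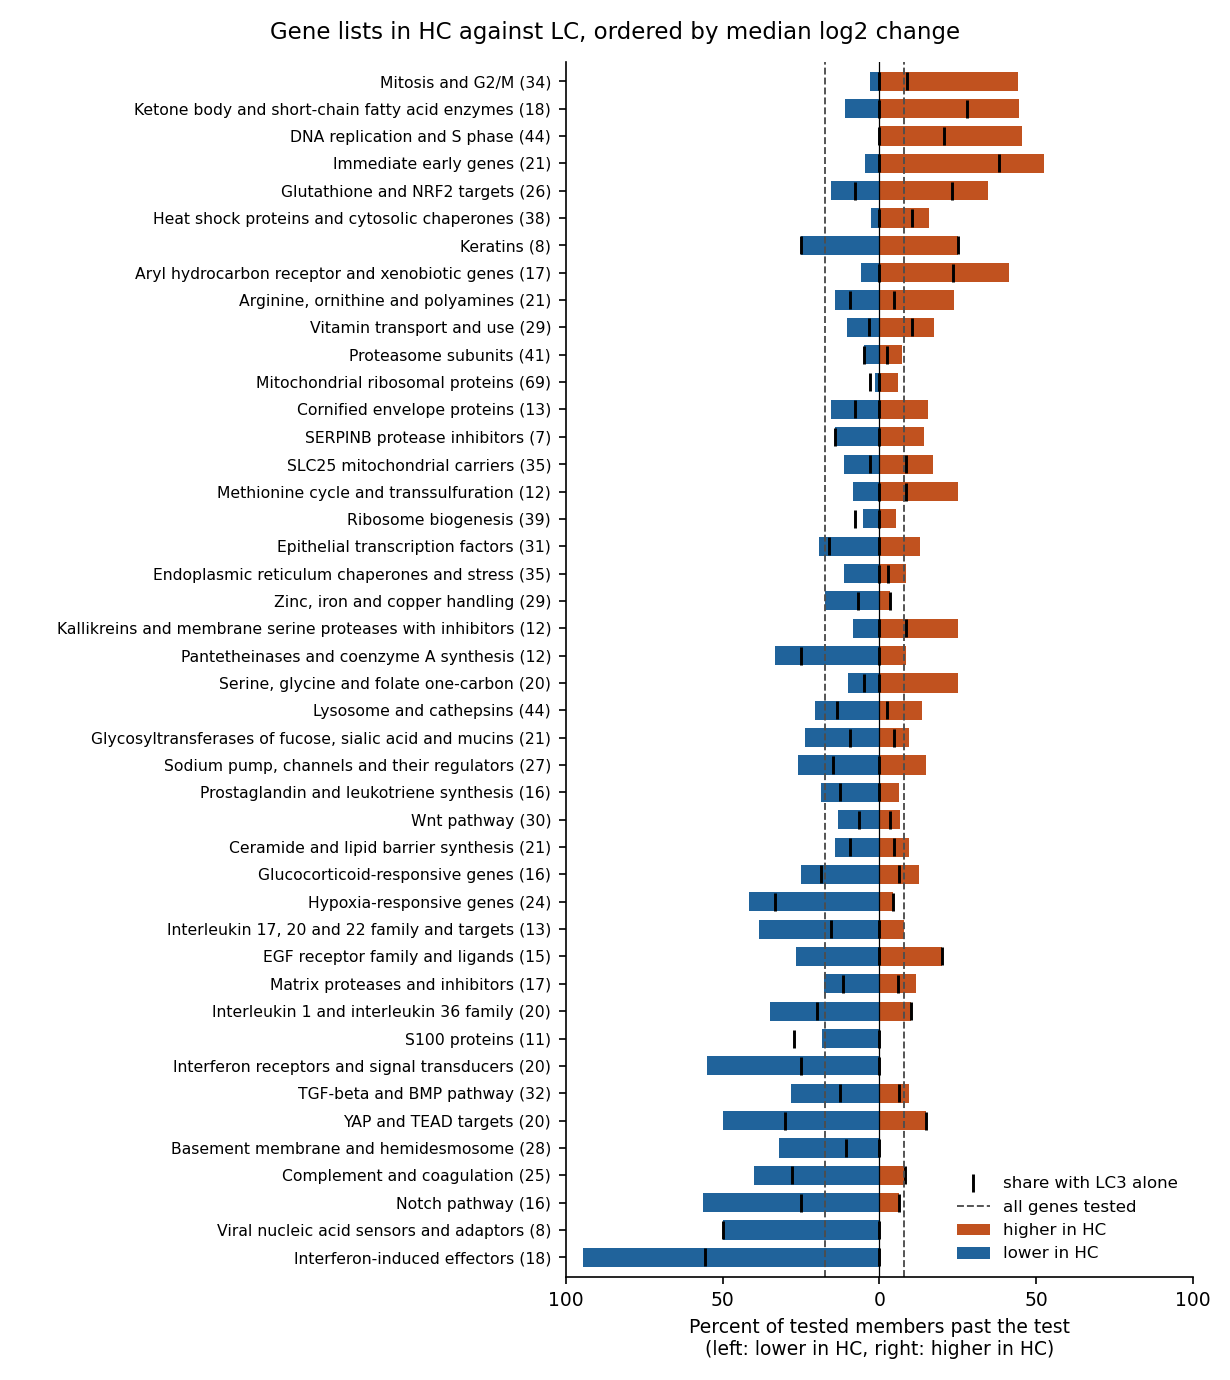
Percent of the tested members of each gene list past the test (x axis), lower in HC to the left in blue and higher in HC to the right in orange, with the number of tested members in brackets, the share with LC3 alone as black ticks, and all genes (17.4% lower, 7.79% higher) as dashed lines. Interferon effectors, nucleic acid sensors and Notch genes stand at the bottom, and mitosis, ketone body and replication genes at the top. The dashed lines belong to the bars, not to the ticks.

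Counted in FPKM, the largest shifts were in abundant genes. The mitochondrial gene ND1 was called higher at 10436, 10888 and 9348 FPKM in HC and 6312, 6469 and 6669 FPKM in LC but lost in 7 of 18 alternatives, with adjusted p up to 0.0847. The glutathione enzyme MGST3 was called higher at 2603, 2265 and 2280.1 against 1137, 1780.4 and 1827 FPKM but lost in 6 of 18 alternatives, with adjusted p up to 0.206. HSD17B13, a lipid droplet enzyme, was higher at 1222, 1449.7 and 1344 FPKM in HC and 479, 765 and 879 FPKM in LC (log2 change 0.96 ± 0.22, adjusted p = 0.00757). DAPL1, an epithelial gene, was higher at 1130.3, 1185 and 1108 FPKM in HC and 338, 659.5 and 712 FPKM in LC (log2 change 1.07 ± 0.24, adjusted p = 0.00788). With LC3 alone the changes of HSD17B13 and DAPL1 were 0.60 and 0.68. Among the falls, CD81, a tetraspanin, stood at 1323, 1292 and 1428 FPKM in HC and 3594, 2698 and 2185 FPKM in LC (log2 change -1.04 ± 0.21, adjusted p = 0.00397). The actin-binding thymosin TMSB4X stood at 915, 899 and 933 FPKM in HC and 1294, 1702 and 1692 FPKM in LC (log2 change -0.76 ± 0.17, adjusted p = 0.00726). TMSB10, its relative, stood at 169, 167 and 183 FPKM in HC and 338, 441 and 423 FPKM in LC (log2 change -1.20 ± 0.18, adjusted p = 7.14e-04). The histone gene H3F3A stood at 611, 555 and 578 FPKM in HC and 868, 969 and 1026 FPKM in LC (log2 change -0.71 ± 0.15, adjusted p = 0.00522). The diets did not overlap in any of these genes, because the naming rule ranked only genes without overlap.

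Among the remaining large rises by log2 change, NCCRP1, a gene of squamous epithelium, stood at 19.5, 19.3 and 34.4 FPKM in HC and 3.89, 3.22 and 3.49 FPKM in LC (log2 change 2.44 ± 0.19, adjusted p = 9.00e-06). The kinase DCLK3 stood at 5.29, 8.94 and 7.27 FPKM in HC and 0.587, 0.915 and 1.13 FPKM in LC (log2 change 2.11 ± 0.20, adjusted p = 3.49e-05). UPP1, which breaks down uridine, stood at 31.4, 27.7 and 45.4 FPKM in HC and 6.95, 10.6 and 8.42 FPKM in LC (log2 change 1.88 ± 0.21, adjusted p = 1.01e-04). SFTPC (2.02), BHLHE23 (1.93), RGCC (1.81), PRAP1 (1.68), TMEM120A (1.66) and PRSS35 (1.65) complete the 20 largest. Among the remaining large falls, SLC15A1, the peptide transporter, stood at 2.24, 2.24 and 1.73 FPKM in HC and 15.5, 12.5 and 14.2 FPKM in LC (log2 change -2.30 ± 0.13, adjusted p = 1.20e-06). DUOXA2, which matures a hydrogen peroxide generator, stood at 3.78, 1.10 and 1.62 FPKM in HC and 17.2, 14.5 and 12.1 FPKM in LC (log2 change -2.38 ± 0.28, adjusted p = 3.56e-04). EDAR, the receptor for ectodysplasin in skin appendages, stood at 1.17, 1.17 and 0.543 FPKM in HC and 8.14, 6.69 and 7.39 FPKM in LC (log2 change -2.11 ± 0.15, adjusted p = 5.39e-06). TNFAIP2 stood at 4.24, 2.79 and 3.32 FPKM in HC and 13.4, 17.8 and 16.003 FPKM in LC (log2 change -1.92 ± 0.15, adjusted p = 8.46e-06). THEM5, a thioesterase, stood at 1.3999, 0.649 and 1.78 FPKM in HC and 7.94, 9.30 and 8.13 FPKM in LC (log2 change -2.09 ± 0.17, adjusted p = 1.41e-05). Of these 40 genes, only the call of SPARCL1 was lost in any alternative.

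Some genes averaged 1 FPKM or more in 1 diet and were very low or not listed in the other. All but FRZB lacked a value in some library or missed the minimum, and so could not enter the fit. FRZB had values in all 9 libraries and exceeded 1 FPKM in LC1, LC2, MC1 and MC2, so it met the rule for testing. For HC 13 such genes were found, of which 12 were listed in no LC library, and for LC 23, of which 15 were listed in no HC library. With a symbol, those of HC were EEF1A1, TMEM160, BCL2L10 and CIB3. EEF1A1, the translation elongation factor that every cell uses, stood at 2434, 2697 and 2644 FPKM in HC and was listed in no LC library, though MC held 2059, 1915 and 1879 FPKM. A gene that is not listed can thus not be read as silent. Those of LC were CD83, EMB, FRZB, IL19, KCNMA1, SBSN, SNTB1 and TOX. CD83, a marker of mature dendritic cells, stood at 0.0985, 0.0787 and 0.0309 FPKM in HC and 1.52, 1.17 and 0.992 FPKM in LC, and EMB, an immunoglobulin-like membrane protein, at 1.06, 0.974 and 1.46 FPKM in LC. FRZB, KCNMA1, SNTB1 and TOX were at most 0.192 FPKM in LC3 and owed their place to LC1 and LC2.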

How the data were processed

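RNA of 9 rumen epithelium libraries, 3 per diet, had been aligned with Bowtie 1.2.0 and quantified with Cufflinks 2.2.1, per the submitters' processing notes. The authors deposited 1 value per gene and library, taken as FPKM from the tool and the values, since no label names the unit. The sources used here do not give the build, annotation, strand or depth. The files hold no read counts, so no counting interval can be given. Names were checked against the RefSeq table of assembly ARS1.2, which holds 16473 (89.6%) of 18383 genes named in the files.

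HC files hold 11468 to 12038 empty lines and other header words than LC files. LC files hold 19 to 21 lines whose gene names a spreadsheet had turned into numbers, against 0 in HC, and these were left out. How the files were made and the diet cannot be told apart. The repeated lines of TPT1 and CD81 were summed. The summed FPKM was 755624 in LC1 and 962868 to 1051183 in the other HC and LC libraries, which listed 15123 to 16696 genes.

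Values were taken to log2(FPKM + 1). A gene needed 1 FPKM or more in 3 or more libraries (11879 genes) and a value in all 9 (211 lacked one), which left 11668 tested. limma 3.58.1 in R 4.3.3 was fitted with a mean per diet over all 9 libraries, with robust moderation and a trend of the spread with level (residual degrees of freedom 6, prior 5.77 in the median), two-sided, with Benjamini-Hochberg adjustment and a threshold of 0.05. With LC3 alone the spread came from HC and MC. Of the tested genes 1479 share a locus with another gene. The script was tested on simulated data. Figures used Python 3.11.15 and matplotlib 3.10.9, tables pandas 2.3.3 and numpy 2.4.6, and library weights statmod 1.5.0.

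The comparison, the gene lists and the tests were chosen with earlier results of these data known, and no list was tested as a set. The naming rule takes the 20 widest rises and 20 widest falls by log2 change (called, without overlap, with a symbol and 1 FPKM or more on average in whichever diet is higher), the 10 and 10 largest by FPKM among the same genes, up to 4 members per list and direction by adjusted p, and list members whose role is described. Alternatives changed the pseudocount, filter, scaling, moderation, weights, covariate, block and libraries used. Promoter sequences were not analysed here, and some genes that the rule takes are not reported here.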

Additional observations from a re-analysis of the deposited data

How the results depend on the processing

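The 2939 calls (909 higher and 2030 lower in HC, 4742 genes without overlap) became 1908 with a minimum of 5 FPKM, which tests fewer genes (1186 lower, 3141 without overlap), 1379 with LC3 alone (431 and 948) and 5889 with library quality weights (1957 and 3932). After median-of-ratios scaling 1494 were higher and 1329 lower, after quantile normalization 1484 and 1157, with the smooth muscle covariate 588 higher, and the cause of these shifts was not tested beyond the move of the median. Leaving out each library in turn gave 1769 to 2791 calls, 530 to 868 higher and 1239 to 2004 lower, lowest in each case without HC3. The library quality weights were 0.47, 0.59 and 7.59 in HC and 0.192, 2.34 and 0.998 in LC. The HC mean of that fit thus rests mostly on HC3. The fit of the HC and LC libraries alone called 2239 genes. The count with LC3 alone stayed between 985 and 1486 under the alternatives that apply to it. Same-numbered HC and LC libraries correlated at 0.29, 0.20 and 0.067 in their deviations from the diet means. The values were 0.45, -0.076 and 0.21 for HC with MC, and 0.38, 0.079 and 0.50 for MC with LC. Whether the numbers pair the samples cannot be told from these values. With the replicate block 3751 genes passed (1176 higher, 2575 lower), no named gene was lost and 3 were gained. Of 321 named genes past the test, 197 held in all 18 alternatives and 124 were lost in at least 1, most often with LC3 alone (110) and without HC3 (68). Of 112 counts of list members higher or lower, 61 moved by more than 1.5 times with LC3 alone, 55 with library quality weights, 43 without HC3, 32 after median-of-ratios scaling and 30 with the smooth muscle covariate. KRT14 (-0.032, lowest of the fits that leave out a library -0.28) turned to 0.096 after median-of-ratios scaling, 0.062 without HC1, 0.053 without LC2 and 0.13 without LC3, and TP63 to -0.0012 after quantile normalization, all far from passing. MYH11, ACTG2, DES, CNN1 and TAGLN turned to 0.95, 1.79, 0.53, 1.81 and 1.57 with LC3 alone. With the smooth muscle covariate ACTG2, CNN1 and TAGLN turned to 0.24, 0.33 and 0.69, but that covariate is built from the same markers and fixes their average change. Depth is unknown, so low FPKM values carry a counting error that the files do not show.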

Other observations

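Genes without a symbol held the widest differences between HC and LC, and the 5 given here were chosen after their values were seen. LOC102182273 stood at 6.65, 4.67 and 3.11 FPKM in HC and 635, 853.9 and 837 FPKM in LC (log2 change -7.10 ± 0.27, adjusted p = 2.25e-07 by limma), and LOC100860781 at 2.65, 2.12 and 0.176 FPKM in HC and 102, 167 and 159 FPKM in LC (log2 change -5.89 ± 0.41, adjusted p = 4.48e-05). Both were also low in MC, with means of 6.03 and 1.66 FPKM. In the other direction, LOC102172082, which shares its locus with another gene, stood at 187.9, 148.9 and 259 FPKM in HC and 0.620, 2.79 and 3.95 FPKM in LC (log2 change 5.96 ± 0.38, adjusted p = 2.89e-05), with an MC mean of 2.37 FPKM. LOC102176340 stood at 560.03, 539 and 539.5 FPKM in HC and 26.1, 72.1 and 76.5 FPKM in LC (log2 change 3.35 ± 0.33, adjusted p = 8.09e-05), with an MC mean of 899 FPKM. With LC3 alone these 4 changes were -7.22, -6.07, 5.30 and 2.82. LOC106504012, on an unplaced sequence of the files' build (positions 859 to 1358), was among the most abundant entries at 6133, 4703 and 6917 FPKM in HC and 17143, 17883 and 18231 FPKM in LC (log2 change -1.60 ± 0.20, adjusted p = 2.70e-04), and all LC libraries lay above all HC libraries. The files give no description of these genes, so no role is given.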
